A study of Mus musculus with 22 samples.

Results

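PPAR-alpha targets and the genes of mitochondrial fat oxidation were followed across the livers of wild-type and Cyp2c70 knockout mice with and without ursodeoxycholic acid (UDCA). The set is a list of 36 gene symbols, and a row of the expression table annotated with 1 of these symbols was taken as the gene. Such a row was found for 35 of the 36, among 24011 genes measured under a symbol of their own, and Acsl1 is not analysed here. The values come from total RNA of liver on Affymetrix MoGene 2.0 ST arrays, 1 array for each of 22 female C57BL/6J mice aged 12 weeks. Wild-type mice on chow (WT_chow, n = 5) and on chow with UDCA (WT_UDCA, n = 6) were set beside Cyp2c70 knockout mice on chow (KO_chow, n = 5) and on chow with UDCA (KO_UDCA, n = 6). UDCA was mixed into chow at 0.1% when the mice were 5 weeks old and given for 7 weeks. The labels do not describe the knockout allele or its control line, and all 4 groups share the strain, sex and age. CYP2C70 is the mouse liver cytochrome that turns chenodeoxycholic acid into muricholic acids, so that mice without it carry a more hydrophobic bile acid pool, and UDCA is itself a hydrophilic bile acid. The series title names bile duct disease and its reversal by UDCA as the question.

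PPAR-alpha is a nuclear receptor of hepatocytes that binds fatty acids and pairs with RXR on a direct repeat of AGGTCA. During fasting it raises the genes that bring fatty acids into the cell and into mitochondria, the enzymes of beta-oxidation, the omega hydroxylases of the Cyp4a family and hormones such as FGF21. In mitochondrial beta-oxidation a fatty acyl chain crosses the membrane as carnitine ester, is shortened by a dehydrogenase, a hydratase, a second dehydrogenase and a thiolase, and hands electrons to the electron transfer flavoprotein.

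Promoter sequence was available from RefSeq (GRCm38.p6) for 28 of the 35 measured genes, in 31 windows of 300 bases. The direct repeat AGGTCANAGGTCA, read on both strands, was in 0 of these 31 windows and in 13 of 32851 promoters of the genome (0.0396%). The looser form AGGNCANAGGNCA, which includes the first, was in 125 promoters (0.381%) and in 1 gene of the set, the fatty acid binding protein gene Fabp1. The first sequence below is the stretch of 250 bases upstream of the Fabp1 start at chr6:71199629-71199878, plus strand, shown because it holds that match. Its capitals mark the repeat, which reads AGGCCATAGGTCA on the other strand. The second is the stretch of 250 bases upstream of Hadhb at chr5:30155003-30155252, plus strand, shown because the 2 subunit genes of the mitochondrial trifunctional protein start back to back. The starts of Hadha and Hadhb lie 272 bases apart on opposite strands, and their upstream windows share 228 bases. It has no match to either form and so no capitals. A match is a string of letters and no measure of binding, which these arrays do not record.
Fabp1: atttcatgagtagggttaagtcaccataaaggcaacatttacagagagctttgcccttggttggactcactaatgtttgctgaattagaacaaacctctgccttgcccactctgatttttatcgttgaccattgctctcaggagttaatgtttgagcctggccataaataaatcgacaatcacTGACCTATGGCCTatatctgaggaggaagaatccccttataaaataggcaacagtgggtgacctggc
Hadhb: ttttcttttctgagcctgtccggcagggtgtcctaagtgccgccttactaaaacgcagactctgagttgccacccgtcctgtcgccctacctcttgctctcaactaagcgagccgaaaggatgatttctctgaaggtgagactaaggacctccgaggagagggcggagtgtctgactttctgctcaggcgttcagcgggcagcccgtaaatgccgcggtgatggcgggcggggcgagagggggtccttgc

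Some facts of the whole series bear on the set. Cyp2c70 measured from 11.28 to 11.62 log2 units in WT_chow and from 10.52 to 10.83 in KO_chow, and the genotypes did not overlap on either diet. KO_chow replicates 2 and 5 stood apart from the other 3 KO_chow mice on the first principal component, at 53.4 and 51.9 against 15.7 to 32.5, so results that rest on KO_chow are given with and without them. Of the hepatocyte markers (among them Alb, Apoa1 and Ttr), 0 of 7 passed the test in KO_chow against WT_chow. Their summed intensity ran from 25159 to 26587 in WT_chow and from 25437 to 26929 in KO_chow. Alb and Ahsg, the brightest of these markers, weigh most in that sum. Markers of other cells moved with the KO_chow group. In KO_chow 9 of 9 cholangiocyte, 7 of 8 macrophage and 6 of 7 fibroblast markers rose and 4 of 5 Kupffer cell markers fell. Summed intensities ran from 266 to 298 in WT_chow, 248 to 301 in WT_UDCA, 664 to 1308 in KO_chow and 292 to 429 in KO_UDCA for cholangiocytes. For macrophages they ran from 487 to 556, 513 to 593, 849 to 3562 and 516 to 694 in the same order, for fibroblasts from 532 to 558, 487 to 606, 1337 to 1982 and 543 to 960, and for Kupffer cells from 1023 to 1174, 880 to 1286, 622 to 794 and 868 to 1490. No marker was at 0, since the lowest intensity of the table was 1.66, so a value above 0 does not show detection. None of 5 adipocyte and none of 4 skeletal muscle markers passed the test. In WT_chow, with array medians of 4.85 to 4.93 log2 units, the muscle markers averaged 3.42 to 4.68, Adipoq 3.59 and Lep 3.79. Plin1, Retn and Fabp4 averaged 4.87, 5.12 and 5.78. A change in the dim markers could be missed. The part of these cells in the results below was not tested, and in whole liver RNA fewer hepatocytes and less RNA per hepatocyte cannot be told apart.

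Most of the set was lower in KO_chow than in WT_chow. Of the 35 genes, 18 fell, 2 rose and 15 did not pass the test (limma, adjusted p under 0.05 after Benjamini-Hochberg adjustment over all 24011 genes). Among all genes 13.7% were called, 6.03% as lower and 7.69% as higher. Many of all genes are dim, while each of the 35 had a mean log2 intensity of at least 5. Cidec and Fgf21 were the dimmest of the set in WT_chow, at means of 5.41 and 5.52 beside array medians of 4.85 to 4.93. The part of background signal in their changes was not tested. A fit to the 11500 genes with a mean log2 intensity of at least 5, the 35 among them, called 30.5%. That fit kept all 20 calls of the set and added 5, and its share is not split by direction here. The median log2 change was -0.377 over the set and -0.0370 over all genes, and 31 of 35 changes were below 0. The largest falls were those of the omega hydroxylase Cyp4a14 (2.36-fold), the thioesterase Acot1 (2.3-fold) and the pantetheinase Vnn1 (1.99-fold), whereas the enzymes of the mitochondrial spiral that passed the test fell by 1.19-fold (Acadvl) to 1.42-fold (Eci1). The 2 genes that rose were the droplet protein gene Cidec and the hormone gene Fgf21. Only 4 of the 35 genes had no overlap between the 5 KO_chow and 5 WT_chow mice: Slc25a20, Etfa and Acot1 lay lower in every KO_chow mouse and Fgf21 higher. Over all genes 3.98% lay lower without overlap and 5.45% higher.

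In KO_UDCA the set lay higher than in KO_chow. Of the 35 genes, 18 rose, 1 fell (Cidec) and 16 did not pass the test, against 11.2% of all genes called, 5.03% as higher and 6.22% as lower. The fit to the 11500 genes with a mean log2 intensity of at least 5 called 26.2% of them, and in the set it kept all 19 calls and added 4. The median log2 change was 0.348 over the set and 0.0327 over all genes, and 30 of 35 changes were above 0. Ppargc1a, Cpt1a, Acaa2, Etfb and Plin5 were higher in every KO_UDCA mouse than in any KO_chow mouse, and 2.62% of all genes were. None of the 35 was lower in every KO_UDCA mouse, and 3.27% of all genes were. Plin5 nevertheless missed the threshold (adjusted p = 0.0795). Both comparisons use the same 5 KO_chow mice, so a value that is low in those mice enters the first as a fall and the second as a rise, and the 2 counts are not independent of each other.

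**Figure D1:**
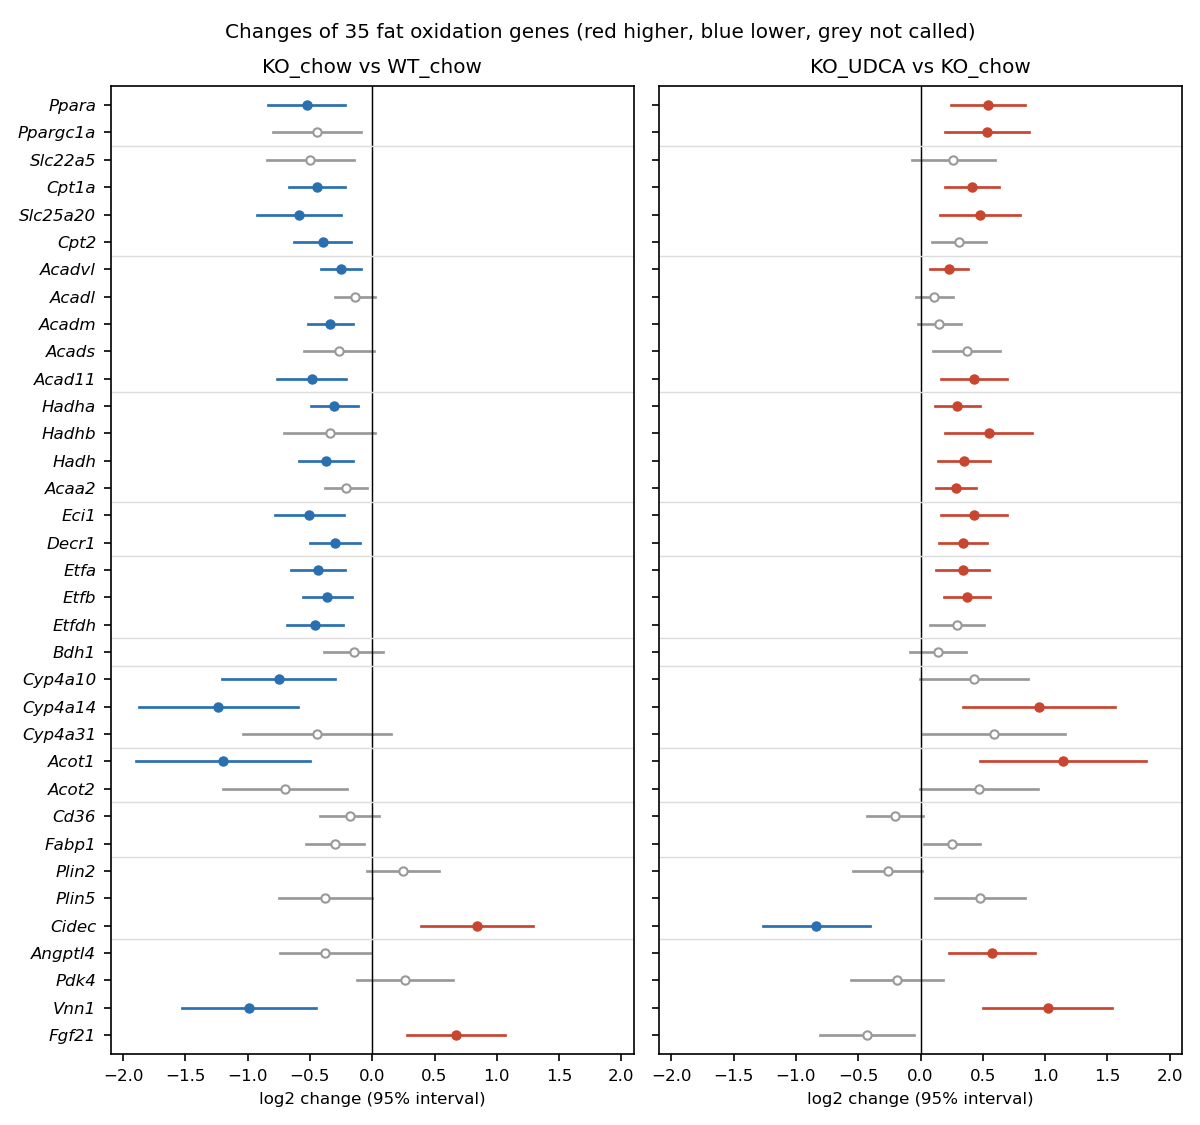
Log2 change of each of the 35 genes with its 95% interval, KO_chow against WT_chow on the left and KO_UDCA against KO_chow on the right, in the order of the roles described in the text and with grey lines between roles. Red points passed the test as higher, blue points as lower and open grey points did not pass; 18 genes are blue on the left and 18 are red on the right.

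The counts rest on few mice. Without KO_chow replicates 2 and 5, a choice made after the data were seen, 0 of the 35 genes passed the test in either comparison, where 4.54% and 2.8% of all genes still did. Replicates 2 and 5 had the lowest medians over the set in KO_chow (-0.634 and -0.536 from the WT_chow mean). Leaving them out was thus bound to shrink these changes, and fewer mice make fewer genes pass. In that fit 15 of 35 genes had an unadjusted p under 0.05 in KO_chow against WT_chow and 13 of 35 in KO_UDCA against KO_chow, against 16.5% and 15.3% of all genes. The direction stayed for most: 30 of 35 changes were below 0 in the first comparison, with a median of -0.233, and 29 of 35 above 0 in the second, with a median of 0.182 (medians over all genes -0.0356 and 0.0301). Leaving out 1 mouse at a time gave 9 to 24 genes called in the first comparison, with 9 without KO_chow replicate 2, 10 without KO_chow replicate 5 and 11 without WT_chow replicate 5. Of all genes, 9.24% were called without KO_chow replicate 2 and 9.45% without KO_chow replicate 5. In the second comparison leaving out 1 mouse gave 4 to 25, with 4 without KO_chow replicate 5, 5 without KO_chow replicate 2, 9 without KO_UDCA replicate 1 or 2, 10 without KO_UDCA replicate 6, 11 without KO_UDCA replicate 3 and 12 without KO_chow replicate 3. There 6.8% of all genes were called without KO_chow replicate 5 and 6.88% without KO_chow replicate 2. A fit to only the groups compared, with their own estimate of the spread, called 7 genes in the first comparison and 5 in the second (8.36% and 6.06% of all genes), and weighting the arrays called 16 and 9 (11.7% and 8.53% of all genes). Calls that held whichever single mouse was left out were 8 of 20 in the first comparison (Acadm, Cidec, Cpt1a, Cyp4a14, Etfa, Etfb, Etfdh and Vnn1) and 4 of 19 in the second (Cidec, Cpt1a, Etfb and Vnn1).

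The receptor itself was lower in KO_chow. Ppara measured 9.43, 9.30, 9.11, 9.28 and 9.49 log2 units in the 5 WT_chow mice and 9.01, 8.66, 8.88, 9.30 and 8.14 in KO_chow replicates 1 to 5. It ran from 9.03 to 9.46 with a median of 9.31 in WT_UDCA and from 9.06 to 9.48 with a median of 9.41 in KO_UDCA. KO_chow replicate 4 lay inside the WT_chow range and the other 4 below it, with replicate 5 far down. The change was -0.53, SE 0.15, adjusted p = 0.0194 in KO_chow against WT_chow and 0.54, SE 0.14, adjusted p = 0.0155 in KO_UDCA against KO_chow. The first call was lost without KO_chow replicate 2 or 5 or WT_chow replicate 5 (adjusted p up to 0.0663), and the second was lost without KO_chow replicate 5 (adjusted p = 0.0573). Ppargc1a, the coactivator PGC-1-alpha, measured 6.82, 7.35, 6.81, 7.11 and 7.64 in WT_chow and 6.98, 6.79, 6.27, 6.80 and 6.66 in KO_chow, and from 7.06 to 7.44 with a median of 7.26 in KO_UDCA. The chow groups overlapped and their difference missed the threshold (-0.44, SE 0.17, adjusted p = 0.0881), while every KO_UDCA mouse lay above every KO_chow mouse (0.54, SE 0.16, adjusted p = 0.034). That call was lost in 7 of 11 fits without 1 mouse (adjusted p up to 0.11).

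The carnitine shuttle carries acyl chains through the mitochondrial membranes, and 3 of its 4 genes fell in KO_chow. Cpt1a, the outer membrane transferase that sets the rate of entry, measured 10.69, 10.92, 10.65, 10.83 and 11.19 in WT_chow and 10.55, 10.16, 10.59, 10.65 and 10.11 in KO_chow. It ran from 10.69 to 10.91 with a median of 10.84 in WT_UDCA and from 10.71 to 10.92 with a median of 10.85 in KO_UDCA. KO_chow replicates 2 and 5 were the lowest, and only replicate 4 reached the bottom of the WT_chow range. The changes were -0.44, SE 0.11, adjusted p = 0.00813 and 0.42, SE 0.10, adjusted p = 0.011, and both calls held whichever mouse was left out. Slc25a20, the carnitine acylcarnitine carrier of the inner membrane, measured 8.63, 8.50, 8.57, 8.57 and 9.04 in WT_chow and 8.32, 7.70, 8.08, 8.39 and 7.89 in KO_chow, and from 8.24 to 8.84 with a median of 8.57 in KO_UDCA. The chow groups did not overlap, and WT_chow replicate 5 stood above the other WT_chow mice. It fell by 0.59 log2 units (SE 0.16, adjusted p = 0.0168) and was 0.48 higher under UDCA (SE 0.16, adjusted p = 0.0487). The fall was lost without KO_chow replicate 2 or 5 or WT_chow replicate 5 (adjusted p up to 0.0658), and the rise was lost in 7 of 11 fits without 1 mouse (adjusted p up to 0.165). Cpt2, the inner membrane transferase that restores acyl-CoA, measured 8.73, 8.69, 8.67, 8.54 and 8.81 in WT_chow and 8.37, 8.07, 8.27, 8.60 and 8.14 in KO_chow, and from 8.36 to 8.72 with a median of 8.64 in KO_UDCA. Only KO_chow replicate 4 reached the WT_chow range. Cpt2 changed by -0.40, SE 0.11, adjusted p = 0.0157 in KO_chow, a call lost without KO_chow replicate 2 or 5 (adjusted p up to 0.0589), and by 0.31, SE 0.10, adjusted p = 0.0609 under UDCA, which did not pass. Slc22a5, the plasma membrane carnitine transporter, measured 7.03, 7.04, 7.11, 6.83 and 7.64 in WT_chow and 6.90, 6.39, 6.60, 6.86 and 6.41 in KO_chow, with KO_chow replicates 1 and 4 inside the WT_chow range, and lay just outside the threshold (-0.50, SE 0.17, adjusted p = 0.0505; 0.26, SE 0.16, adjusted p = 0.347 under UDCA).

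Acyl-CoA dehydrogenases open each round of beta-oxidation and differ in the chain length they take. Acadm, the medium-chain enzyme, measured 10.93, 10.74, 10.92, 10.91 and 10.97 in WT_chow and 10.74, 10.28, 10.50, 10.79 and 10.48 in KO_chow. It ran from 10.61 to 10.89 with a median of 10.76 in WT_UDCA and from 10.62 to 10.77 with a median of 10.72 in KO_UDCA. KO_chow replicate 4 lay inside the WT_chow range, replicate 1 at its lower edge, set by WT_chow replicate 2, and the other 3 below it. Acadm fell in KO_chow (-0.34, SE 0.09, adjusted p = 0.0119, kept in all 10 fits without 1 mouse), and its change under UDCA did not pass (0.15, SE 0.08, adjusted p = 0.286). Acad11, a member of the same family, measured 10.35, 10.28, 10.28, 10.20 and 10.66 in WT_chow and 10.10, 9.51, 10.00, 10.26 and 9.46 in KO_chow, with KO_chow replicates 2 and 5 well under the rest. Its changes were -0.49, SE 0.13, adjusted p = 0.0155 and 0.43, SE 0.13, adjusted p = 0.03. The first was lost without KO_chow replicate 2 or 5 or WT_chow replicate 5 (adjusted p up to 0.063), and the second was lost in 6 of 11 fits without 1 mouse (adjusted p up to 0.12). Acadvl, the very long-chain enzyme, measured 9.73, 9.67, 9.83, 9.71 and 9.75 in WT_chow and 9.61, 9.30, 9.47, 9.68 and 9.39 in KO_chow, and from 9.58 to 9.78 with a median of 9.73 in KO_UDCA. Only KO_chow replicate 4 reached the WT_chow range. Acadvl passed in both comparisons with small changes (-0.25, SE 0.08, adjusted p = 0.0336, then 0.23, SE 0.07, adjusted p = 0.0482), and was lost in 7 of 10 fits without 1 mouse (adjusted p up to 0.117) and lost in 8 of 11 fits without 1 mouse (adjusted p up to 0.162). Acadl, the long-chain enzyme (-0.14 and 0.11, adjusted p = 0.281 and 0.389), and Acads, the short-chain enzyme (-0.27 and 0.37, adjusted p = 0.222 and 0.0693), passed in neither.

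After the first dehydrogenase come the trifunctional protein and the later enzymes of the spiral. All 4 genes of this step rose under UDCA in the knockout and 2 of 4 fell in KO_chow. Hadha, the trifunctional subunit with the hydratase and the second dehydrogenase, measured 10.50, 10.39, 10.36, 10.35 and 10.70 in WT_chow and 10.26, 9.94, 10.25, 10.35 and 9.99 in KO_chow, and from 10.28 to 10.52 with a median of 10.50 in KO_UDCA. KO_chow replicates 2 and 5 were again lowest, and replicate 4 was level with the lowest WT_chow mouse. The changes were -0.30, SE 0.09, adjusted p = 0.0269 and 0.29, SE 0.09, adjusted p = 0.03; the first was lost in 4 of 10 fits without 1 mouse (adjusted p up to 0.0968), and the second was lost in 6 of 11 fits without 1 mouse (adjusted p up to 0.11). Hadhb, the thiolase subunit whose upstream sequence is printed above, measured 7.03, 6.97, 7.43, 7.16 and 7.49 in WT_chow, 7.38, 6.63, 6.39, 7.16 and 6.81 in KO_chow and from 7.12 to 7.71 with a median of 7.46 in KO_UDCA. Its lowest mouse was KO_chow replicate 3, not 2 or 5, and KO_chow replicates 1 and 4 lay within the WT_chow range. The difference on chow did not pass (-0.34, SE 0.18, adjusted p = 0.233), and the rise under UDCA did (0.55, SE 0.17, adjusted p = 0.0368), a call lost in 7 of 11 fits without 1 mouse (adjusted p up to 0.121). Hadh, the soluble dehydrogenase of shorter chains, measured 11.39, 10.98, 11.31, 11.15 and 11.13 in WT_chow and 11.06, 10.60, 10.86, 11.03 and 10.57 in KO_chow, and from 10.95 to 11.31 with a median of 11.21 in KO_UDCA. KO_chow replicates 1 and 4 lay inside the WT_chow range and the other 3 below it. Hadh changed by -0.37, SE 0.10, adjusted p = 0.0201 and by 0.35, SE 0.10, adjusted p = 0.0259. These calls were lost in 4 of 10 fits without 1 mouse (adjusted p up to 0.0739) and lost in 5 of 11 fits without 1 mouse (adjusted p up to 0.0986). Acaa2, the thiolase that ends each round, measured 10.91, 10.78, 10.82, 10.86 and 10.88 in WT_chow and 10.81, 10.33, 10.68, 10.84 and 10.52 in KO_chow, and from 10.85 to 10.99 with a median of 10.93 in KO_UDCA. Its lowest mice were again KO_chow replicates 2 and 5. Acaa2 did not pass on chow (-0.21, SE 0.08, adjusted p = 0.0897) and rose under UDCA without overlap between the knockout groups (0.29, SE 0.08, adjusted p = 0.0191), a call lost without KO_chow replicate 2 or 5 (adjusted p up to 0.0775).

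Double bonds in unsaturated chains need an isomerase and a reductase, and both genes fell and then lay higher under UDCA. Eci1, the isomerase, measured 8.50, 8.27, 8.50, 8.34 and 8.45 in WT_chow and 8.27, 7.55, 7.90, 8.28 and 7.53 in KO_chow, and from 8.15 to 8.51 with a median of 8.35 in KO_UDCA. KO_chow replicates 1 and 4 met the lowest WT_chow values, whereas replicates 2 and 5 were far below them. Its changes were -0.51, SE 0.13, adjusted p = 0.0122 and 0.43, SE 0.13, adjusted p = 0.0301, with the first lost without KO_chow replicate 2 (adjusted p = 0.0506) and the second lost in 6 of 11 fits without 1 mouse (adjusted p up to 0.118). Decr1, the dienoyl-CoA reductase, measured 8.54, 8.42, 8.34, 8.46 and 8.45 in WT_chow and 8.27, 7.81, 8.15, 8.44 and 8.05 in KO_chow, and from 8.30 to 8.58 with a median of 8.50 in KO_UDCA. KO_chow replicate 4 lay inside the WT_chow range and the other 4 below it. Decr1 changed by -0.30, SE 0.10, adjusted p = 0.0446 and 0.34, SE 0.09, adjusted p = 0.02, with the first lost in 7 of 10 fits without 1 mouse (adjusted p up to 0.163) and the second lost without KO_chow replicate 2 or 5 (adjusted p up to 0.0836).

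All 3 electron transfer genes fell in KO_chow, and these calls held whichever single mouse was left out. Etfa and Etfb encode the subunits of the flavoprotein that takes electrons from the acyl-CoA dehydrogenases, and Etfdh the enzyme that passes them to ubiquinone. Etfa measured 8.96, 8.79, 8.87, 8.97 and 8.85 in WT_chow and 8.65, 8.20, 8.35, 8.72 and 8.34 in KO_chow, without overlap (-0.44, SE 0.11, adjusted p = 0.0075). It ran from 8.45 to 9.05 with a median of 8.74 in WT_UDCA, a range that reached down into the KO_chow values, and from 8.63 to 8.95 with a median of 8.79 in KO_UDCA (0.34, SE 0.10, adjusted p = 0.033), a call lost in 8 of 11 fits without 1 mouse (adjusted p up to 0.12). Etfb measured 9.09, 9.15, 9.16, 9.06 and 8.98 in WT_chow, 8.98, 8.36, 8.84, 8.91 and 8.55 in KO_chow and from 9.04 to 9.21 with a median of 9.08 in KO_UDCA. Only KO_chow replicate 1 reached the WT_chow range, and the knockout groups did not overlap. The changes of Etfb were -0.36, SE 0.09, adjusted p = 0.0114 and 0.37, SE 0.09, adjusted p = 0.00857, and without KO_chow replicates 2 and 5 they shrank to -0.18 and 0.19 (adjusted p = 0.217 and 0.19). Etfdh measured 10.58, 10.40, 10.56, 10.47 and 10.68 in WT_chow and 10.28, 9.68, 10.17, 10.42 and 9.83 in KO_chow. KO_chow replicate 4 was inside the WT_chow range and the other 4 were under it (-0.46, SE 0.11, adjusted p = 0.00629). Under UDCA Etfdh did not pass (0.29, SE 0.11, adjusted p = 0.078). Bdh1, which interconverts the ketone bodies in mitochondria, passed in neither comparison (-0.15 and 0.14, adjusted p = 0.451 and 0.49).

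The largest falls of the set were in PPAR-alpha targets outside the mitochondrial spiral. Omega hydroxylases of the Cyp4a family oxidise the far end of fatty acids in the endoplasmic reticulum. Cyp4a14 measured 11.58, 11.42, 11.63, 11.40 and 11.97 in WT_chow and 10.47, 9.10, 10.97, 11.50 and 9.80 in KO_chow. It ran from 11.04 to 11.96 with a median of 11.43 in WT_UDCA and from 10.65 to 11.75 with a median of 11.32 in KO_UDCA. KO_chow replicate 4 lay among the WT_chow values and replicate 2 more than 2 log2 units under all of them. The fall was 1.24 log2 units (2.36-fold, SE 0.31, adjusted p = 0.00877) and was kept in all 10 fits without 1 mouse. The rise under UDCA was 0.95 (SE 0.30, adjusted p = 0.0391), lost in 7 of 11 fits without 1 mouse (adjusted p up to 0.154). Cyp4a10 measured 11.63, 11.51, 11.54, 11.29 and 11.87 in WT_chow and 11.13, 10.30, 10.93, 11.66 and 10.05 in KO_chow. KO_chow replicates 2 and 5 were low and replicate 4 as high as WT_chow. It fell on chow (-0.75, SE 0.22, adjusted p = 0.023; lost without KO_chow replicate 2 or 5 or WT_chow replicate 5 (adjusted p up to 0.0892)) and did not pass under UDCA (0.43, SE 0.21, adjusted p = 0.218). Cyp4a31 passed in neither (-0.44 and 0.59, adjusted p = 0.363 and 0.187), with WT_chow replicate 5 and KO_chow replicate 4 highest in their groups. Genes of this family are close copies of each other, so their probes may share signal.

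Acyl-CoA thioesterases free fatty acids from coenzyme A. Acot1, the cytosolic enzyme, measured 6.83, 6.61, 6.85, 6.55 and 7.44 in WT_chow and 6.12, 4.93, 5.59, 6.48 and 5.16 in KO_chow, and from 5.92 to 7.48 with a median of 6.84 in KO_UDCA. It ran from 5.72 to 7.78 with a median of 6.73 in WT_UDCA, a width of more than 2 log2 units. All 5 KO_chow mice lay under all 5 WT_chow mice. The change was -1.20, SE 0.34, adjusted p = 0.0185 on chow and 1.14, SE 0.32, adjusted p = 0.0231 under UDCA, with the first lost without KO_chow replicate 2 or 5 or WT_chow replicate 5 (adjusted p up to 0.0702) and the second lost in 4 of 11 fits without 1 mouse (adjusted p up to 0.0888). Acot2, its mitochondrial neighbour and near copy, pointed the same way without passing (-0.70, SE 0.24, adjusted p = 0.0538; 0.47, SE 0.23, adjusted p = 0.215). The probes of these 2 genes may share signal as well.

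Uptake and binding genes did not pass. Cd36, a fatty acid transporter, measured 9.39, 9.36, 9.32, 9.15 and 9.33 in WT_chow and 9.21, 8.90, 9.30, 9.26 and 8.97 in KO_chow, with changes of -0.18, SE 0.11, adjusted p = 0.348 and -0.20, SE 0.11, adjusted p = 0.269. Fabp1, which carries fatty acids in the cytosol and whose upstream repeat is printed above, measured 11.62, 11.38, 11.49, 11.23 and 11.40 in WT_chow and 11.30, 10.76, 11.24, 11.45 and 10.89 in KO_chow. KO_chow replicates 2 and 5 were the lowest, and the other 3 lay inside the WT_chow range. Its changes were -0.30, SE 0.11, adjusted p = 0.0872 and 0.25, SE 0.11, adjusted p = 0.15.

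Among the 3 lipid droplet proteins only Cidec passed the test, in the direction opposite to the oxidation enzymes. Cidec, which lets droplets fuse and grow, measured 5.36, 5.31, 5.05, 5.45 and 5.90 in WT_chow and 5.46, 6.16, 6.64, 5.79 and 7.21 in KO_chow. It ran from 5.35 to 5.61 with a median of 5.36 in WT_UDCA and from 5.11 to 5.60 with a median of 5.44 in KO_UDCA. KO_chow replicate 5 was highest, followed by replicates 3 and 2, while replicates 1 and 4 lay inside the WT_chow range. Cidec rose on chow (0.84, SE 0.22, adjusted p = 0.0112) and fell under UDCA (-0.84, SE 0.21, adjusted p = 0.0105), and both calls were kept whichever mouse was left out. Plin2, a general droplet coat, changed by 0.25 and -0.26 without passing (adjusted p = 0.286 and 0.239). Plin5, the coat that ties droplets to mitochondria, measured 6.82, 6.31, 6.41, 6.63 and 6.76 in KO_chow and from 6.95 to 7.29 with a median of 7.05 in KO_UDCA, 2 ranges without overlap, but its changes did not pass (-0.38, SE 0.18, adjusted p = 0.194; 0.48, SE 0.17, adjusted p = 0.0795).

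Secreted and regulatory targets went in different directions. Vnn1, a pantetheinase and a liver target of PPAR-alpha, measured 8.52, 8.29, 8.84, 8.38 and 9.01 in WT_chow and 7.91, 7.18, 7.80, 8.41 and 6.80 in KO_chow. It ran from 7.83 to 9.15 with a median of 8.74 in WT_UDCA and from 8.09 to 8.82 with a median of 8.75 in KO_UDCA. Of the 5 KO_chow mice 4 lay under the WT_chow range, and replicate 4 was inside it. The changes of Vnn1 were -0.99, SE 0.26, adjusted p = 0.0119 and 1.02, SE 0.25, adjusted p = 0.0092, kept in every fit that left out 1 mouse, and without KO_chow replicates 2 and 5 they were -0.57 and 0.60 (adjusted p = 0.249 and 0.227). Fgf21, the fasting hormone of the liver and a target of PPAR-alpha, went the other way. It measured 5.65, 5.55, 5.54, 5.60 and 5.25 in WT_chow and 5.96, 6.17, 6.32, 6.58 and 5.91 in KO_chow, and from 5.10 to 6.02 with a median of 5.81 in KO_UDCA. Every KO_chow mouse lay above every WT_chow mouse, and the highest was replicate 4, the mouse whose oxidation genes were least changed. Its rise was 0.67, SE 0.19, adjusted p = 0.0195, lost without KO_chow replicate 4 or WT_chow replicate 5 (adjusted p up to 0.0562), and was 0.77 without KO_chow replicates 2 and 5 (adjusted p = 0.0548). Under UDCA the change did not pass (-0.43, SE 0.18, adjusted p = 0.143). Angptl4, an inhibitor of lipoprotein lipase, measured 8.65, 9.30, 8.96, 9.20 and 9.33 in WT_chow, 8.91, 8.74, 8.30, 9.20 and 8.40 in KO_chow and from 9.01 to 9.69 with a median of 9.25 in KO_UDCA. It did not pass on chow (-0.38, SE 0.17, adjusted p = 0.17) and rose under UDCA (0.57, SE 0.17, adjusted p = 0.028), a call lost in 5 of 11 fits without 1 mouse (adjusted p up to 0.0973). Pdk4, which shuts pyruvate out of oxidation, passed in neither (0.26 and -0.19, adjusted p = 0.42 and 0.586).

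**Figure D2:**
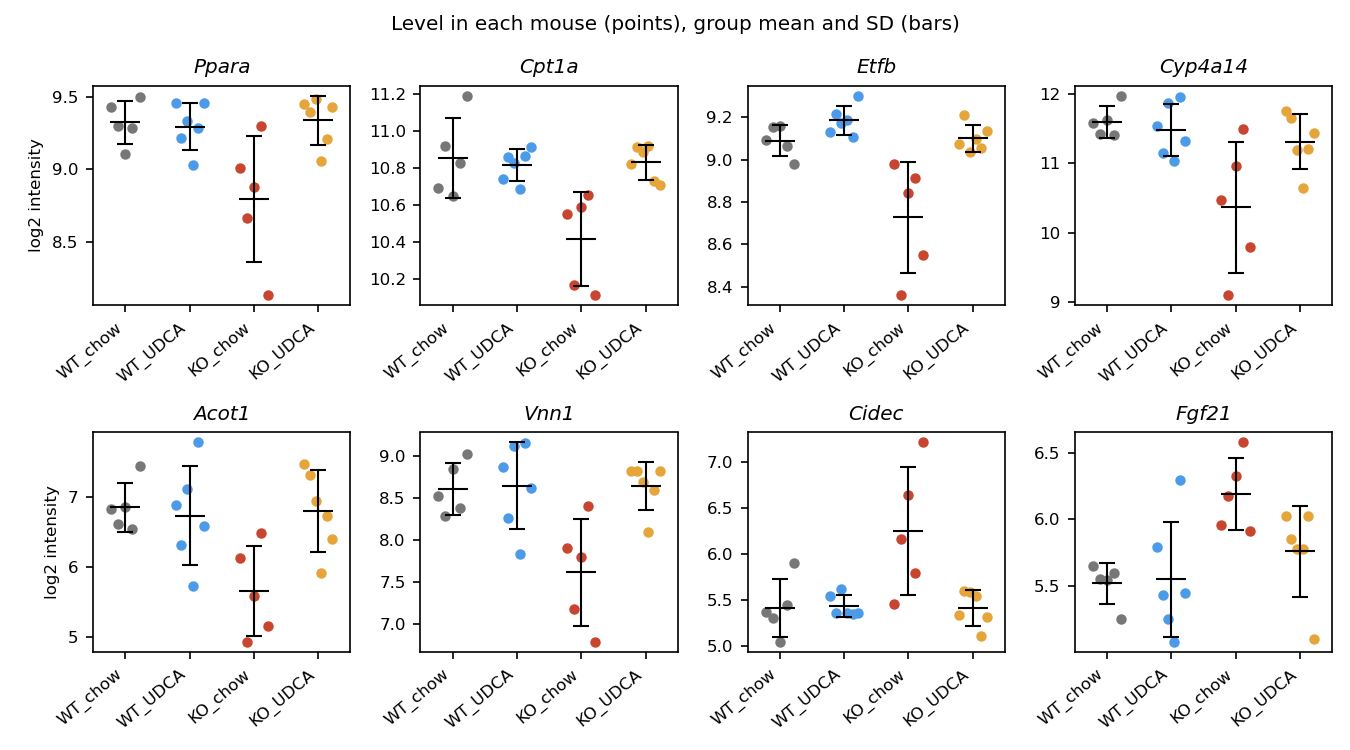
Log2 intensity of Ppara, Cpt1a, Etfb, Cyp4a14, Acot1, Vnn1, Cidec and Fgf21 in each mouse (points) with the group mean and SD (bars), each panel on its own scale and with points in the order of replicate number. KO_chow is the widest group in Ppara and Cyp4a14, where replicate 4 sits at 9.30 and 11.50, among the WT_chow points, while Cidec and Fgf21 are raised in KO_chow.

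Most of the set was low in the same KO_chow mice. Taking each gene as its deviation from the WT_chow mean, the median over the 35 genes was -0.165, -0.634, -0.394, -0.0843 and -0.536 in KO_chow replicates 1 to 5. The same median ran from -0.0924 to 0.173 in WT_chow, from -0.181 to 0.132 in WT_UDCA and from -0.128 to 0.0572 in KO_UDCA. KO_chow replicates 2, 3 and 5 thus lay below all other mice, and replicates 1 and 4 lay above the lowest WT_UDCA mouse. Below the lowest WT_chow value were 19, 30, 29, 6 and 30 of the 35 genes in KO_chow replicates 1 to 5, against 21.7%, 29.9%, 25.7%, 20.7% and 26.5% of all genes. In KO_UDCA between 1 and 16 of the 35 were below it, against 16.1% to 19.3% of all genes, and in WT_UDCA between 1 and 18, against 15.9% to 19.7%. The median SD of a gene within a group was 0.288 over the set and 0.193 over all genes in KO_chow, and 0.207 and 0.184 in WT_UDCA, so the set was wider than all genes in both of these groups. It was 0.156 and 0.168 in WT_chow and 0.152 and 0.176 in KO_UDCA. By role, the median SD in KO_chow went from 0.183 for the acyl-CoA dehydrogenases to 0.700 for the omega hydroxylases. Single mice also led many genes in the other groups: WT_chow replicate 5 was highest of its group in 21 of 35 genes, WT_UDCA replicate 4 lowest in 21 and WT_UDCA replicate 5 highest in 19.

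**Figure D3:**
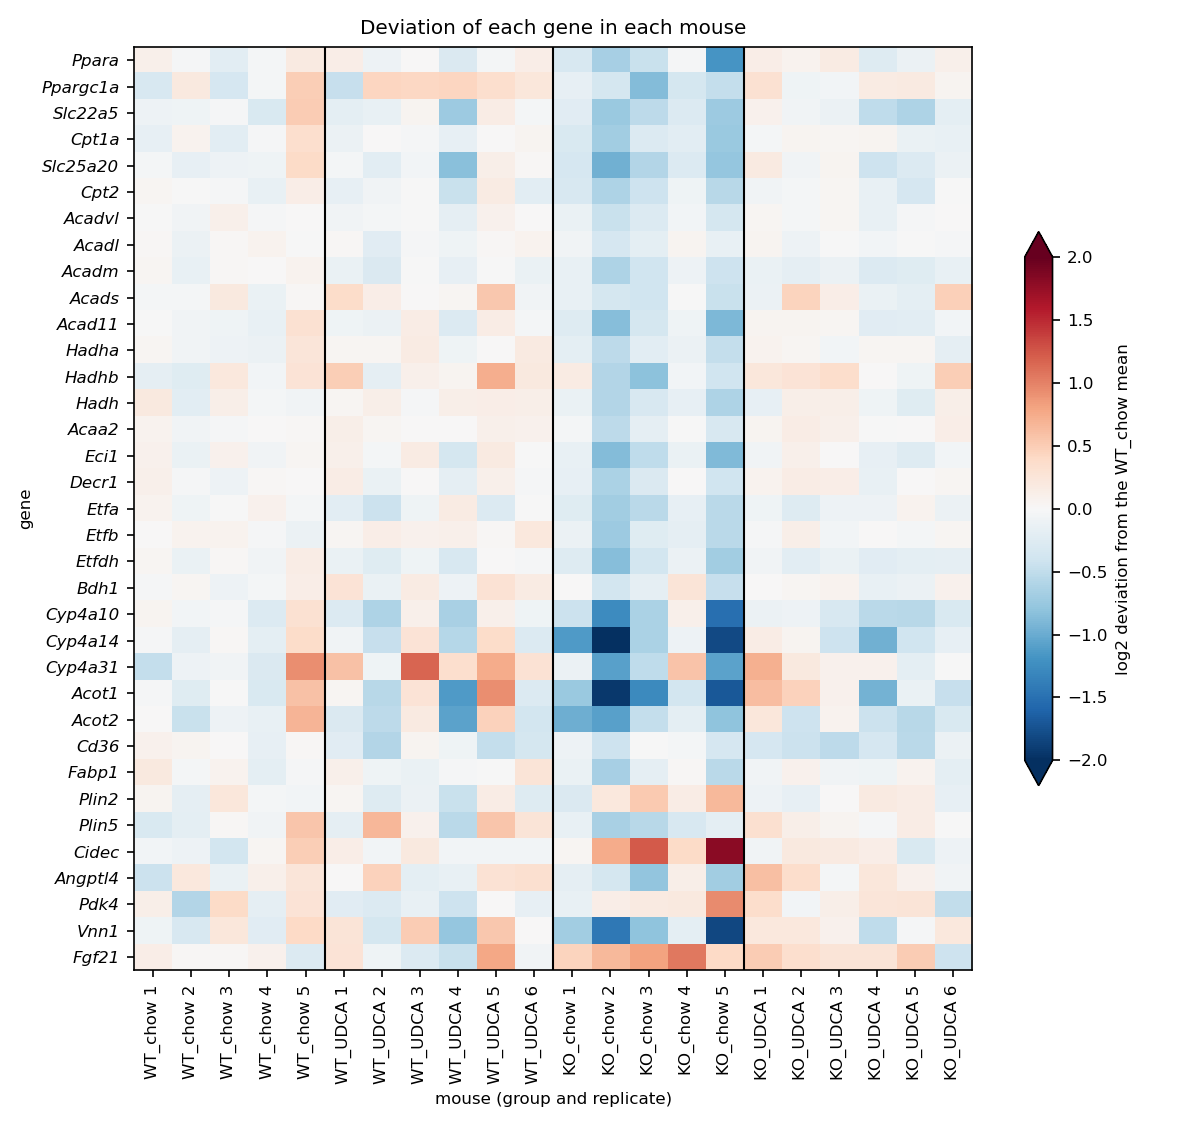
Deviation of each of the 35 genes (rows) from its WT_chow mean in each of the 22 mice (columns, grouped by genotype and diet), in log2 units with red for higher and blue for lower. KO_chow replicates 2, 3 and 5 are blue through most rows, with Cidec and Fgf21 in red, and KO_chow replicate 4 stays pale.

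The 7 hepatocyte markers, taken as a mean, did not go down with the set. Taken singly, 4 of them had a change below 0 in KO_chow against WT_chow and 3 above 0, from -0.085 to 0.17. Alb and Ahsg averaged 13.02 and 12.82 log2 units in WT_chow, near the highest intensity of the table (10284). The others averaged 10.72 to 11.64. Whether signal as bright as that of Alb and Ahsg follows a small fall was not tested. The mean deviation of the hepatocyte markers from WT_chow ran from -0.0432 to 0.0846 in KO_chow, where the median deviation over the 35 genes went as far down as -0.634. The mean deviation of the macrophage markers was 1.06, 2.48, 1.56, 1.11 and 2.17 in KO_chow replicates 1 to 5, highest in the pair of mice whose oxidation genes were lowest. For cholangiocyte markers it was 1.47, 1.85, 1.13, 1.25 and 1.54. The part of these cells in the lower values was not tested.

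**Figure D4:**
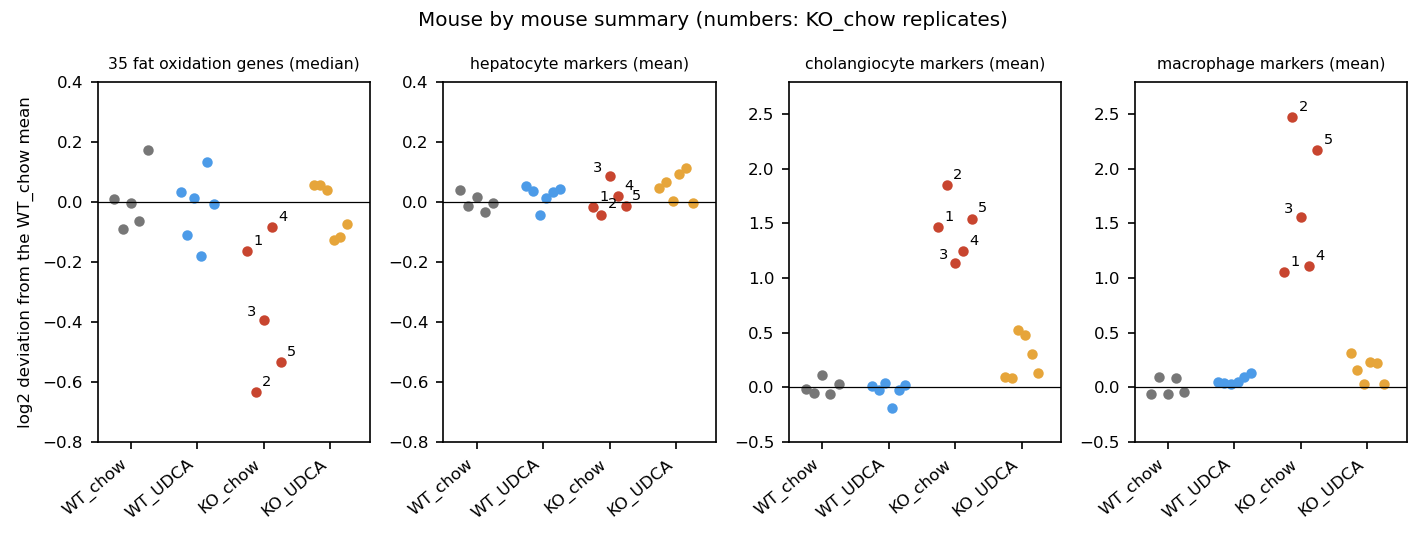
Log2 deviation from the WT_chow mean in each mouse (1 point a mouse, grouped by genotype and diet) for the median of the 35 fat oxidation genes and the mean of the hepatocyte, cholangiocyte and macrophage markers, with KO_chow points numbered by replicate. The fat oxidation and hepatocyte panels share 1 scale and the cholangiocyte and macrophage panels another. KO_chow replicates 2 and 5 are lowest for the fat oxidation genes at -0.634 and -0.536 and highest for macrophage markers at 2.48 and 2.17, while hepatocyte markers stay between -0.0432 and 0.0846 in KO_chow.

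Neighbouring pathways were read from gene lists that do not contain the set. Beside the counts of all these lists stand the shares of all genes called, 13.7% in KO_chow against WT_chow and 11.2% in KO_UDCA against KO_chow. The fit to the genes with a mean log2 intensity of at least 5 called 30.5% and 26.2%. Without KO_chow replicates 2 and 5 the shares of all genes were 4.54% and 2.8%. Peroxisomal fat oxidation, which shortens very long chains and is also governed by PPAR-alpha, had 12 of 18 genes lower and none higher in KO_chow, and 10 of 18 higher and none lower in KO_UDCA against KO_chow. Its median changes were -0.54 and 0.41. Without KO_chow replicates 2 and 5 these counts were 3 and 3. Eci3, a peroxisomal enoyl-CoA isomerase, ran from 5.37 to 6.08 with a median of 5.68 in WT_chow, from 3.68 to 4.57 with a median of 4.23 in KO_chow and from 5.29 to 5.91 with a median of 5.46 in KO_UDCA, without overlap in either comparison. All KO_chow values of Eci3 lay under the array medians of that group (4.89 to 4.94), and the part of background signal in its changes was not tested. The changes of Eci3 were -1.51, SE 0.17, adjusted p = 2.26e-06 and 1.36, SE 0.16, adjusted p = 9.6e-06, and they held without KO_chow replicates 2 and 5 (-1.31 and 1.15, adjusted p = 9.1e-05 and 0.000469). Hao2, a hydroxyacid oxidase, changed by -1.35, SE 0.37, adjusted p = 0.0159 and 1.90, SE 0.36, adjusted p = 0.00115; without those 2 mice the second call stayed (adjusted p = 0.0396) and the first did not (adjusted p = 0.248). Acot3, a peroxisomal thioesterase, changed by -1.27, SE 0.28, adjusted p = 0.00346 and 1.25, SE 0.27, adjusted p = 0.00364, and neither call stayed (adjusted p = 0.0853 and 0.106).

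Other mitochondrial acyl-CoA enzymes, which include those of amino acid breakdown, had 11 of 15 genes lower and none higher in KO_chow, and 10 of 15 higher and none lower under UDCA, with median changes of -0.49 and 0.42. Without KO_chow replicates 2 and 5 the counts were 4 and 1. Acsm3, a medium-chain acyl-CoA synthetase, ran from 9.03 to 9.31 with a median of 9.14 in WT_chow, from 7.80 to 8.93 with a median of 8.39 in KO_chow and from 8.94 to 9.24 with a median of 9.11 in KO_UDCA, with no overlap in either comparison (-0.80, SE 0.16, adjusted p = 0.00142; 0.74, SE 0.15, adjusted p = 0.00244). Hibch, an enzyme of valine breakdown (-0.76, SE 0.15, adjusted p = 0.00143; 0.47, SE 0.14, adjusted p = 0.0381), and Acad10, an acyl-CoA dehydrogenase (-0.63, SE 0.11, adjusted p = 0.000603; 0.42, SE 0.11, adjusted p = 0.0127), were lower in every KO_chow mouse than in any WT_chow mouse. The falls of these 3 genes also passed without KO_chow replicates 2 and 5 (adjusted p = 0.0211, 0.0156 and 0.0212), and their rises under UDCA did not (adjusted p = 0.0535, 0.608 and 0.245).

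Ketogenesis and ketone body use, with 6 measured genes, had 1 higher and 1 lower in KO_chow and the reverse under UDCA. Oxct1, which starts the use of ketone bodies and is low in normal hepatocytes, ran from 5.32 to 5.60 with a median of 5.34 in WT_chow and from 6.02 to 6.70 with a median of 6.17 in KO_chow (0.82, SE 0.12, adjusted p = 8.04e-05), and fell under UDCA (-0.66, SE 0.12, adjusted p = 0.000752). Both calls held without KO_chow replicates 2 and 5 (adjusted p = 0.0016 and 0.0185). Acat1, the mitochondrial acetoacetyl-CoA thiolase, changed by -0.44, SE 0.11, adjusted p = 0.00951 and 0.40, SE 0.11, adjusted p = 0.0162, which did not hold there (adjusted p = 0.165 and 0.25). Other genes of fatty acid uptake and activation had 3 of 13 lower and 2 higher in KO_chow, and 1 higher and 1 lower under UDCA. The share called under UDCA, 15.4%, was near the 11.2% of all genes. Acsl4, an acyl-CoA synthetase that prefers arachidonate, rose (0.63, SE 0.13, adjusted p = 0.00143) and fell under UDCA (-0.66, SE 0.12, adjusted p = 0.000841), without overlap and also without the 2 mice (adjusted p = 0.0222 and 0.0169). Slc27a2, which takes up and activates very long chains, changed by -0.35, SE 0.09, adjusted p = 0.0114 and 0.27, SE 0.09, adjusted p = 0.0476, and Fabp2 by -0.44, SE 0.14, adjusted p = 0.0332 and 0.10, SE 0.13, adjusted p = 0.704. None of these calls of Slc27a2 and Fabp2 held without the 2 mice (adjusted p from 0.238 to 0.582).

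Other Cyp4 hydroxylases had 4 of 12 lower and 1 higher in KO_chow, and 4 higher and 1 lower under UDCA, and 0 of 12 without KO_chow replicates 2 and 5 in either. The share called was 41.7% in both comparisons, against 13.7% and 11.2% of all genes. Cyp4a32 changed by -1.35, SE 0.34, adjusted p = 0.00997 and 1.03, SE 0.33, adjusted p = 0.0442, Cyp4f15 by -0.67, SE 0.18, adjusted p = 0.0117 and 0.52, SE 0.17, adjusted p = 0.0454, and Cyp4f18, which breaks down leukotriene B in leukocytes, by 0.70, SE 0.15, adjusted p = 0.00306 and -0.47, SE 0.15, adjusted p = 0.0372. Cyp4f18 was dim, from 4.13 to 4.77 in WT_chow, under the array medians of that group (4.85 to 4.93). Lipid droplet turnover had 6 of 14 lower and none higher in KO_chow, and 4 higher and none lower under UDCA, with 1 and 0 without the 2 mice. Fitm1, which helps droplets bud, ran from 6.83 to 7.14 with a median of 7.01 in WT_chow and from 4.84 to 6.40 with a median of 5.79 in KO_chow. It fell (-1.23, SE 0.20, adjusted p = 0.000254, and adjusted p = 0.00304 without the 2 mice) and did not pass under UDCA (0.56, SE 0.20, adjusted p = 0.0687). The lipase genes Pnpla2 (-0.47, SE 0.13, adjusted p = 0.0195; 0.52, SE 0.13, adjusted p = 0.00961) and Mgll (-0.65, SE 0.16, adjusted p = 0.00931; 0.60, SE 0.16, adjusted p = 0.0154) passed in both comparisons, but not without the 2 mice (adjusted p from 0.139 to 0.291).

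Partners and regulators of PPAR-alpha had 7 of 19 lower and none higher in KO_chow, and 9 higher and 1 lower under UDCA, with 2 and 2 without KO_chow replicates 2 and 5. The shares called were 36.8% and 52.6%, against 13.7% and 11.2% of all genes. Sirt3, the mitochondrial deacetylase, ran from 7.00 to 7.24 with a median of 7.12 in WT_chow, from 6.05 to 6.89 with a median of 6.52 in KO_chow and from 6.78 to 7.27 with a median of 7.14 in KO_UDCA. It fell (-0.69, SE 0.12, adjusted p = 0.000607) and rose under UDCA (0.67, SE 0.12, adjusted p = 0.000752), and both calls held without the 2 mice (adjusted p = 0.0143 and 0.0228). Ppargc1b, the sister coactivator of Ppargc1a, changed by -0.86, SE 0.18, adjusted p = 0.00218 and 0.87, SE 0.17, adjusted p = 0.00172 (adjusted p = 0.0547 and 0.0551 without them). Lpin1, a coactivator and phosphatidate phosphatase, did not pass on chow (-0.32, SE 0.30, adjusted p = 0.563) and rose under UDCA (0.99, SE 0.29, adjusted p = 0.0275; adjusted p = 0.124 without them). Its 5 WT_chow mice ran from 9.21 to 11.08 with a median of 10.68, the widest range among the genes named from these lists in that group.

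**Figure D5:**
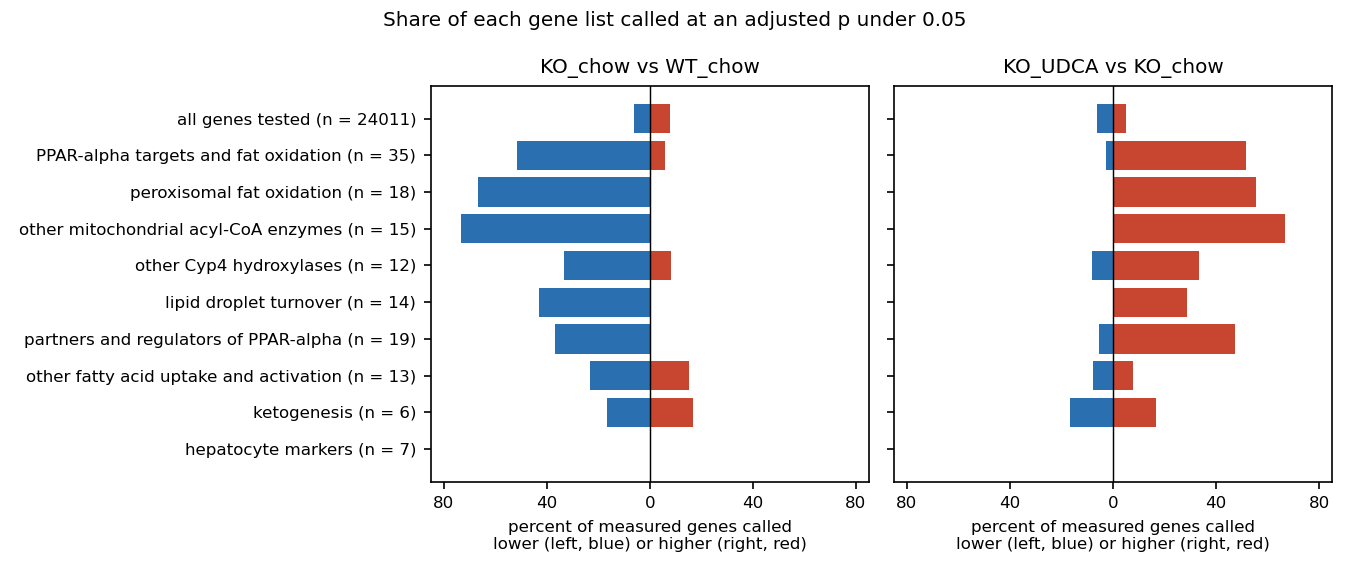
Percent of the measured genes of each list called lower (blue, to the left) or higher (red, to the right) at an adjusted p under 0.05, in KO_chow against WT_chow and in KO_UDCA against KO_chow, with the number of measured genes in brackets. The bar for all 24011 genes is the background; in the left panel the lists of PPAR-alpha targets and fat oxidation (18 of 35), peroxisomal fat oxidation (12 of 18) and other mitochondrial acyl-CoA enzymes (11 of 15) lie mostly to the left, and hepatocyte markers have 0 of 7 on either side.

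In wild-type mice UDCA changed none of these genes beyond the spread between mice. In WT_UDCA against WT_chow 0 of the 35 genes passed, as did 0 of all 24011 genes, of which 1338 (5.57%) had an unadjusted p under 0.05. In the set that was 1 gene, Cd36 (-0.28, SE 0.11, adjusted p = 0.823). The median change was -0.0277. The 95% intervals were wide for the most variable genes: from -0.79 to 0.55 for Acot1, from -0.73 to 0.49 for Cyp4a14 and from -0.48 to 0.55 for Vnn1. For Ppara the interval was from -0.32 to 0.27, for Cpt1a from -0.26 to 0.18 and for Etfb from -0.09 to 0.28.

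Treated knockout mice were not told apart from either wild-type group by these genes. In KO_UDCA against WT_UDCA 0 of 35 passed, and 4 of all genes did (0.0167%). In KO_UDCA against WT_chow 0 of 35 passed, and 6 of all genes did (0.025%). The medians were -0.0199 and -0.0195. At an unadjusted p under 0.05 were 0 of 35 in the first and 2 of 35 in the second, Cd36 and Acadm, against 5.45% and 5.62% of all genes. Cd36 measured 9.39, 9.36, 9.32, 9.15 and 9.33 in WT_chow and ran from 8.76 to 9.19 with a median of 8.92 in KO_UDCA, where 5 of the 6 mice lay below the lowest WT_chow mouse (-0.38, SE 0.11, adjusted p = 0.496). Acadm in KO_UDCA ran from 10.62 to 10.77 with a median of 10.72, with a change of -0.18, SE 0.08, adjusted p = 0.881. The 95% intervals against WT_chow were from -0.28 to 0.31 for Ppara, from -0.24 to 0.19 for Cpt1a, from -0.90 to 0.33 for Cyp4a14, from -0.73 to 0.61 for Acot1, from -0.48 to 0.54 for Vnn1 and from -0.14 to 0.62 for Fgf21. A difference within such an interval would have been missed, so that equal levels are not shown.

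Whether UDCA acted differently in the 2 genotypes was asked with the interaction term, the UDCA change in the knockout minus that in wild type. None of the 35 genes passed it, and 642 of all genes did (2.67%); at an unadjusted p under 0.05 were 18 of 35 and 16.3% of all genes. The median interaction was 0.318 in the set and 0.0155 over all genes. The smallest adjusted p was that of Etfa (0.48, SE 0.14, adjusted p = 0.0752), followed by Cpt1a (0.46, SE 0.15, adjusted p = 0.104) and Slc25a20 (0.64, SE 0.22, adjusted p = 0.124). Leaving out KO_chow replicate 4 gave 9 genes (Cpt1a, Cpt2, Cyp4a10, Cyp4a14, Decr1, Etfa, Etfdh, Ppara and Vnn1), leaving out KO_chow replicate 1 gave 2 (Cidec and Etfa) and leaving out WT_UDCA replicate 4 gave 1 (Etfa). The shares of all genes called in these fits are not given here, so nothing about the set is read from these counts. Without KO_chow replicates 2 and 5 it gave 0 in the set and 207 of all genes (0.862%). The rise under UDCA in the knockout was therefore called, and its difference from wild type was not.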

How the data were processed

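Per the labels, the authors used RMA with a probe-level summary and deposited 1 unlogged intensity per row and mouse (1.66 to 10284). For RMA the submitters' processing notes list no version, and no genome build is stated in the sources used. The platform annotation gave 24015 of 24973 rows exactly 1 symbol, and for the 4 symbols on several rows the brighter row was kept. Intensities were taken to log2 without an offset or a filter. The limma 3.58.1 fit (R 4.3.3) took all 22 arrays with a mean for each group, and 6 comparisons were tested, two-sided, with Benjamini-Hochberg adjustment over 24011 genes (threshold 0.05). The fit was tested on simulated data with independent noise for each gene and the same spread in all groups. Shifts shared by many genes in single mice were not simulated, so that test does not cover them. P-values measure the spread between mice, and the number of arrays limits the precision.

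The 36 genes, the pathway and marker lists and the tests were chosen with earlier results of these data known. Listed genes without an annotated row among those used, such as Acsl1, Ncor1, Tf, Spp1 and Cfd, are not analysed here. By rule, values of single mice were given for genes that passed in at least 1 comparison and for Ppara, Ppargc1a and Cpt1a; those of Slc22a5, Cd36, Fabp1 and Plin5 were added after they were seen. The remaining genes of the set are described by their changes. From each other list up to 3 genes with the largest changes among those that passed were named. Alternatives were another offset, a filter on dim genes, centring, quantile normalization, fewer groups, array weights, another variance model, a term for the 2 runs of sample numbers in the titles, and leaving out mice. Replicate numbers follow the order of the records and pair nothing. Promoter sequences are RefSeq's, and figures were drawn with matplotlib 3.10.9.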

Additional observations from a re-analysis of the deposited data

Results flagged for a closer look

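Within groups, 8 of 140 combinations of gene and group held a mouse far from its nearest neighbour by Dixon's test at the 95% level, about the share that chance gives (1 in 20). In WT_chow, replicate 5 was high for Slc25a20 (9.04) and Cyp4a31 (8.36) and low for Fgf21 (5.25), and replicate 2 was low for Acadm (10.74). In WT_UDCA, replicate 1 was low for Ppargc1a (6.68) and replicate 4 for Slc25a20 (7.83). In KO_UDCA, replicate 4 was low for Vnn1 (8.09) and replicate 6 for Fgf21 (5.10). All these values are log2 intensities, and 3 of the 8 belong to WT_chow replicate 5.

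Among the genes named from the neighbouring lists, 5 had a UDCA change that differed between the genotypes by the interaction test (limma, adjusted over all genes), against 2.67% of all genes. These genes were named for large changes that rest on the same KO_chow mice, which favours such calls, so nothing is read from their number. The interaction was 1.53 for Eci3 (adjusted p = 0.000853), 1.43 for Acot3 (adjusted p = 0.0435), 0.571 for Acad10 (adjusted p = 0.045), -0.662 for Acsl4 (adjusted p = 0.0376) and -0.613 for Oxct1 (adjusted p = 0.0494). Without KO_chow replicates 2 and 5 only that of Eci3 passed among these 5 (adjusted p = 0.00532), and the others had adjusted p from 0.154 to 0.275. The KO_chow values of Eci3 lay under the array medians of that group, as given above.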

How the results depend on the processing

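Counts of called genes among the 35 moved with the fit. In KO_chow against WT_chow the count was 20, and 7 with a fit to only the groups compared, 0 without KO_chow replicates 2 and 5 (added after seeing the data) and 9 to 24 with 1 mouse left out. In KO_UDCA against KO_chow it was 19, and 5, 9 (array weights), 0 and 4 to 25. Of all genes, the fit to only the groups compared called 8.36% and 6.06% in these 2 comparisons. Array weights called 8.53% in the second. In the interaction the count among the 35 was 0, and 1 (Etfa) with log2(intensity + 16), with a mean log2 intensity of at least 5 or with an intensity trend and robust eBayes, and 0 to 9 with 1 mouse left out. Of all genes tested, the offset, the filter and the trend called 3.59%, 8.07% and 3.15% in the interaction, against 2.67% in the main fit. The other 3 comparisons gave 0 in every fit. The filter on dim genes called 30.5% and 26.2% of the 11500 genes it kept in the first and second comparison. It kept all 35 genes of the set, and all 20 and 19 calls stayed. A further 5 and 4 genes of the set passed under it. Centring, quantile normalization and the term for title numbers kept both counts within 1.5 times. Bdh1, called in neither, changed sign without KO_chow replicates 2 and 5 (0.0257 in the first comparison, -0.0373 in the second), and the cause was not tested. Each mouse gave 1 array and the labels pair no mice across groups, so no paired analysis was run.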
